A study of Mus musculus with 16 samples.

Results

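Homeostatic microglia in the mouse cerebral cortex were described here through 10 genes: the purinergic receptor genes P2ry12 and P2ry13, the lipid receptor gene Gpr34, the chemokine receptor gene Cx3cr1, the cytokine receptor gene Csf1r, the surface molecules Siglech, Selplg, Fcrls and Tmem119, and the transcription factor gene Sall1. They were chosen by name as genes known to mark resting microglia, with earlier results of these data known. They are 10 of the 22911 genes that could be named on the array. Together they carried 14 probes of 56605. Gpr34, Cx3cr1, Csf1r and Siglech had 2 probes each and the other 6 genes had 1. All 14 probes were well above background and unsaturated on all 16 arrays, so that no member was lost to the filter on dim probes that left 17436 genes for testing.

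The study compared male mice labelled Neil1-/-, backcrossed on C57BL/6, with male wild-type littermates 28 to 42 weeks old. NEIL1 is a DNA glycosylase that starts the repair of oxidised bases. Mice received 6 Gy of gamma rays to the whole body at 0.74 Gy/min or were sham-exposed, and RNA of the cerebral cortex was taken 20 h later. The 4 groups, wild type sham, wild type irradiated, labelled knockout sham and labelled knockout irradiated, had 4 arrays each. All 4 groups had also received the thymidine analogue BrdU at 100 mg/kg, once before the exposure and once 2 h after it. The tissue was whole cortex, in which microglia are a minority of the cells. In such RNA, fewer microglia and less RNA of a gene per microglial cell cannot be told apart.

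Microglia are the resident macrophages of the brain. In the healthy brain they survey the tissue with moving processes, and they express a set of receptors and surface molecules that most other macrophages lack or express weakly. This set is kept up by local signals, among them transforming growth factor beta and the ligands of the CSF1 receptor, and it is known to fall when microglia become activated or are lost.

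Each level below is the log2 of a probe's processed signal minus the log2 of that array's 75th percentile, so that 0 is the 75th percentile and a difference of 1 is a doubling. Levels of different probes depend on how each probe binds and were not compared with each other. Where a gene had 2 probes, the brighter stood for the gene in tests over genes, and the dimmer was tested over all 39589 probes that passed the filter. The threshold for a call was 0.05 on limma's adjusted p.

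Several facts of the arrays bear on these values. The 75th percentile of the processed signal averaged 2415 in wild type sham, 2301 in wild type irradiated, 1778 in labelled knockout sham and 1333 in labelled knockout irradiated arrays. All wild-type arrays were on 1 slide and all arrays labelled knockout on the other, so that genotype and slide cannot be told apart, and sham arrays filled the upper row and irradiated arrays the lower row of each slide, so that dose and row cannot be told apart either. The Neil1 probe did not check the genotype labels: its level was -3.96 to -3.30 in wild type sham, -4.32 to -3.39 in wild type irradiated, -2.60 to -2.17 in labelled knockout sham and -2.56 to -2.15 in labelled knockout irradiated arrays, higher in the arrays labelled knockout. Whether this probe lies in the deleted part is unknown here. The p53 target Cdkn1a, which encodes the cell cycle inhibitor p21, rose after irradiation by 1.42 ± 0.19 (log2 difference ± SE) in wild type and by 1.21 ± 0.19 in labelled knockout, with limma adjusted p-values of 0.00472 and 0.0223. All 10 neuron, 10 astrocyte and 10 oligodendrocyte markers were well above background on all 16 arrays, as were 28 of 28 further microglia genes.

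P2ry12 was lower after irradiation in both genotypes, and it was the one gene of the 10 that passed the test when its brightest probe stood for it. P2ry12 encodes a receptor for ADP that couples to Gi and guides microglial processes towards injured cells. Its levels in the 4 wild type sham arrays were 0.16, 0.33, 0.22 and 0.15. In wild type irradiated arrays they were -0.45, -0.52, -0.31 and -0.34. All 4 irradiated values lay below all 4 sham values, with a gap wider than the spread within either group. In labelled knockout sham arrays the levels were -0.06, 0.16, -0.04 and -0.35, and in labelled knockout irradiated arrays they were -0.91, -0.82, -0.78 and -0.80. These groups did not overlap either, and the irradiated labelled knockout arrays were the lowest of the 16.

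The fall of P2ry12 was 0.62 on the log2 scale in wild type (SE 0.10, limma adjusted p = 0.0357), a change of -34.9%. In labelled knockout the difference was -0.76 ± 0.10, or -40.8%, with a limma adjusted p of 0.00525. Averaged over both genotypes it was -0.69 ± 0.07, with a 95% interval of -0.84 to -0.53 and an adjusted p of 0.000219. P2ry12 ranked 11 of 17436 genes by p in the averaged comparison. The size of the fall varied little between processing choices, from -0.73 to -0.60 in the averaged comparison, but the wild-type call alone was lost in 25 of 32 alternatives. Those included leaving out any of the 8 wild-type arrays, with adjusted p-values of 0.0741 to 0.191 there. The call in labelled knockout was lost in 5 of 32 alternatives, among them array brightness as a covariate (-0.76, adjusted p = 0.0604) and leaving out its 2 dimmest irradiated arrays (-0.79, adjusted p = 0.0881). The averaged call was lost in 1 of 31, median scaling (-0.66, adjusted p = 0.111).

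**Figure D1:**
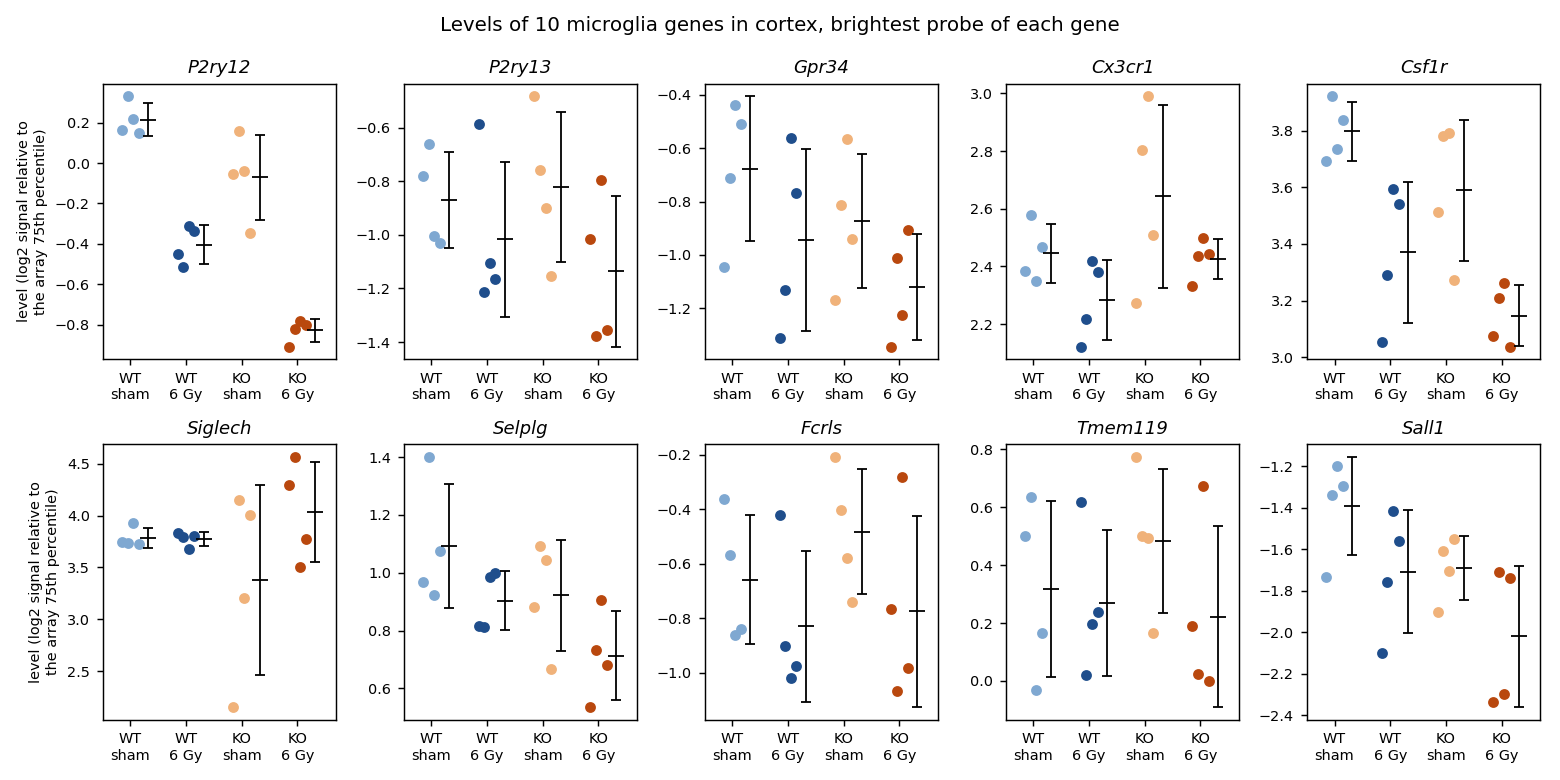
Levels of the 10 genes on each array, brightest probe of each gene. Points are single arrays of wild type (WT) and labelled knockout (KO) mice, sham or 6 Gy; the horizontal mark and bars are the mean ± SD of 4 arrays; the vertical axis is the log2 processed signal relative to the array 75th percentile, with a scale of its own in each panel. P2ry12 and Csf1r are lower in all 4 irradiated arrays than in all 4 sham arrays of the same genotype, and Siglech spreads widely in the labelled knockout.

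The other member receptors for nucleotides and lipids lay on the same side of 0 without passing the test. P2ry13 encodes a second receptor for ADP and is the next gene to P2ry12 on the chromosome in the RefSeq gene table. Its 4 wild type sham arrays averaged -0.87 ± 0.18 (SD, n = 4), beside -1.02 ± 0.29 in wild type irradiated, -0.82 ± 0.28 in labelled knockout sham and -1.14 ± 0.28 in labelled knockout irradiated arrays. The sham and irradiated arrays overlapped in both genotypes. The averaged difference was -0.23 ± 0.13, with an interval of -0.50 to 0.04.

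The RefSeq start-site windows of these adjacent genes, 250 bases before to 50 bases after the start on GRCm38.p6, are shown because P2ry12 carries the main result and P2ry13 is the neighbouring gene for an ADP receptor; the difference between both genes was not tested. They are written 5′ to 3′ on the minus strand, and capitals mark GAGGAA, a short form of the binding site of the macrophage transcription factor PU.1. P2ry12 lies at chr3:59262936-59263235 and P2ry13 at chr3:59210833-59211132.
P2ry12: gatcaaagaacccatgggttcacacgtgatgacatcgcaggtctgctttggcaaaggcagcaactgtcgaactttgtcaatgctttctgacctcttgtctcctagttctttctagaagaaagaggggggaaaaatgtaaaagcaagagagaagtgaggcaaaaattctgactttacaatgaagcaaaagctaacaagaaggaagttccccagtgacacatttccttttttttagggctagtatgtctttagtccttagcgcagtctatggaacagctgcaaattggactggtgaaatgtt
P2ry13: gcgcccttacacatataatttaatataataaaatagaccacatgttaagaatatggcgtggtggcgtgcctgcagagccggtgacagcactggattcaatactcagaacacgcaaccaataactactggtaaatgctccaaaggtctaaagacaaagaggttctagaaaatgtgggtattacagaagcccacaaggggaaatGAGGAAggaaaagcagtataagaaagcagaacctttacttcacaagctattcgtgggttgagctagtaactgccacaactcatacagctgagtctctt
GAGGAA, searched on both strands, occurred in the P2ry13 window 48 bases before the start and not in the P2ry12 window. RefSeq windows were held for 6 of the 10 members, Csf1r, Gpr34, Selplg and Tmem119 being the other 4. GAGGAA stood in 3 of the 8 windows of those 6 genes (P2ry13, Fcrls and Siglech), against 28.3% of 32851 windows of all genes. The longer PU.1 site GAGGAAGT, which contains GAGGAA, the ETS-IRF composite element, the AP-1 site TGANTCA and the SMAD box GTCTAGAC were in 0 of the 8 windows, and in 3.2%, 2.72%, 7.81% and 0.213% of all windows.

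None of the 4 tested neighbours of this pair was called in the averaged comparison. P2ry1 had a difference of 0.32 ± 0.28, Med12l of -0.06 ± 0.08, P2ry14 of -0.03 ± 0.13 and Igsf10 of 0.03 ± 0.14.

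Gpr34 encodes a receptor for lysophosphatidylserine. Its brighter probe averaged -0.68 in wild type sham, -0.94 in wild type irradiated, -0.87 in labelled knockout sham and -1.12 in labelled knockout irradiated arrays, and the groups overlapped in both genotypes. The averaged difference was -0.26 ± 0.13. The dimmer probe gave -0.52 ± 0.15 (limma adjusted p = 0.476). Both probes rose and fell together from array to array, with r = 0.85 over the 16 arrays after each group's mean was subtracted.

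Csf1r, which encodes the receptor for CSF1 and interleukin-34 on which microglia depend for survival, came closest to the threshold after P2ry12. Its brighter probe read 3.69, 3.92, 3.74 and 3.84 in wild type sham arrays and 3.05, 3.29, 3.59 and 3.54 in wild type irradiated arrays. In labelled knockout it read 3.51, 3.78, 3.79 and 3.27 in sham and 3.07, 3.21, 3.26 and 3.04 in irradiated arrays. The irradiated arrays lay below the sham arrays in both genotypes, though narrowly in labelled knockout, where 3.26 and 3.27 were the nearest values.

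The difference of this Csf1r probe was -0.43 ± 0.14 in wild type and -0.44 ± 0.14 in labelled knockout. Averaged, it was -0.44 ± 0.10, with an unadjusted p of 0.000518 and a limma adjusted p of 0.128. It passed the threshold with quantile normalization (adjusted p = 0.0463), with array weights (0.0173) and without labelled knockout sham replicate 4 (0.0474), the array with the lowest sham value. The dimmer Csf1r probe did not show this difference. It averaged -1.84 in wild type sham and -1.94 in wild type irradiated arrays, and -1.35 and -1.10 in the labelled knockout, and its averaged irradiation difference was 0.08 ± 0.11.

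The chemokine receptor gene Cx3cr1, whose product binds the neuronal chemokine fractalkine, also depended on the probe. On its brighter probe the means were 2.44, 2.28, 2.64 and 2.43 in wild type sham, wild type irradiated, labelled knockout sham and labelled knockout irradiated arrays, with overlapping groups and an averaged difference of -0.19 ± 0.09. On the dimmer probe the wild type sham levels were 0.42, 0.47, 0.07 and 0.05 and the wild type irradiated levels 0.04, -0.24, -0.28 and -0.45. The labelled knockout levels on that probe were 0.15, 0.28, -0.17 and -0.30 in sham and -0.56, -0.52, -0.36 and -0.56 in irradiated arrays. The irradiated values lay below the sham values in both genotypes, with 0.05 and 0.04 as the nearest values in wild type. The averaged difference of the dimmer probe was -0.49 ± 0.11 (limma adjusted p = 0.180).

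Siglech encodes a microglial member of the Siglec family, named for sialic-acid binding lectins, that signals through the adaptor DAP12. Its probes disagreed most. The brighter probe read 3.74, 3.73, 3.93 and 3.73 in wild type sham and 3.83, 3.79, 3.68 and 3.81 in wild type irradiated arrays, a difference of -0.01 ± 0.34. In labelled knockout it read 2.15, 4.15, 3.21 and 4.01 in sham and 4.30, 4.57, 3.50 and 3.78 in irradiated arrays. The labelled knockout values spanned a far wider range than the wild-type values in both treatments, and the difference there was 0.66 ± 0.34 (limma adjusted p = 0.999).

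The dimmer Siglech probe was lower in every irradiated array than in any sham array. It read -2.63, -2.40, -2.60 and -2.63 in wild type sham and -3.11, -3.31, -3.08 and -3.30 in wild type irradiated arrays. In labelled knockout it read -2.40, -2.55, -2.34 and -2.65 in sham and -3.51, -3.64, -2.90 and -3.14 in irradiated arrays. Neither genotype showed overlap, and the sham groups of both genotypes covered nearly the same range. Averaged over genotypes, the dimmer probe fell by 0.72 (SE 0.10), a change of -39.4%, with a limma adjusted p of 0.00883 over all probes tested. The within-genotype differences were -0.63 ± 0.15 in wild type (adjusted p = 0.622) and -0.81 ± 0.15 in labelled knockout (adjusted p = 0.103). The processed signal of this probe was 102 to 445, well above background on all 16 arrays. The averaged call was lost with quantile normalization (adjusted p = 0.116), median scaling (0.456) and z-score normalization (0.0545).

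**Figure D2:**
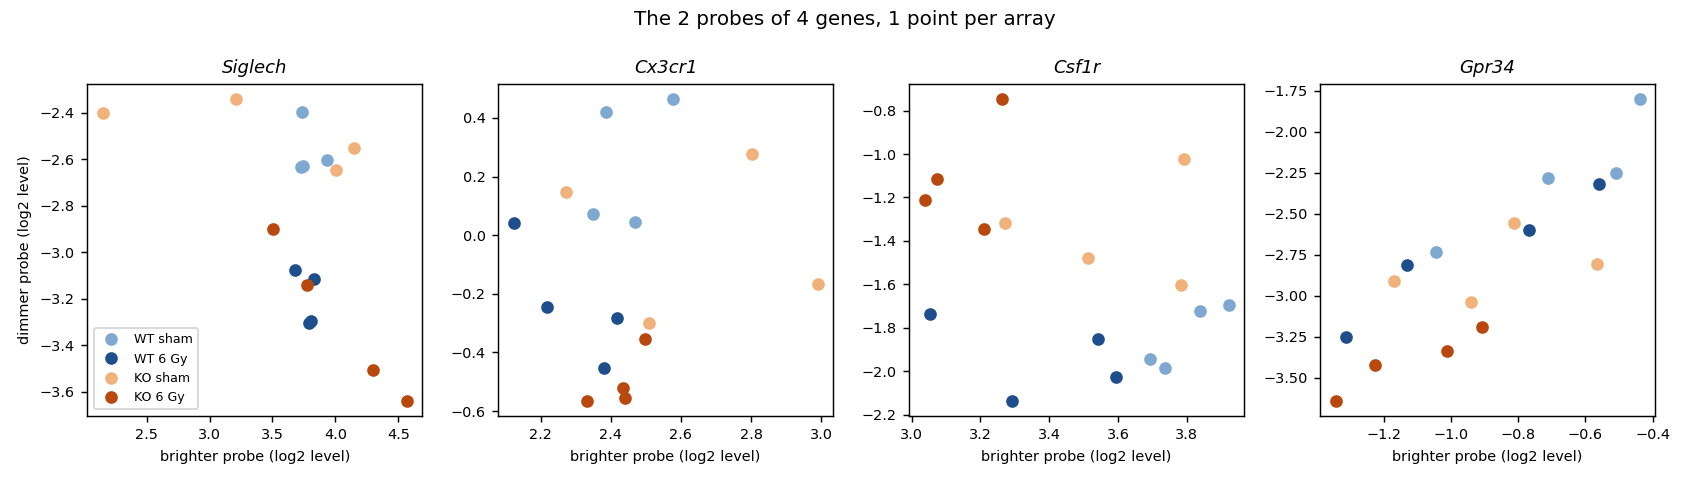
The brighter probe (horizontal axis) against the dimmer probe (vertical axis) of the 4 genes with 2 probes, 1 point per array, both as log2 levels relative to the array 75th percentile; colours give genotype (WT wild type, KO labelled knockout) and dose. The Gpr34 probes rise together, with r = 0.85 within groups, while those of Siglech run against each other, with r = -0.63.

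Within groups the brighter and dimmer probes of Siglech correlated at r = -0.63, those of Cx3cr1 at -0.12 and those of Csf1r at 0.09, over 16 arrays that share labelling and slide. The brighter Csf1r probe moved with P2ry12 within groups (r = 0.76), whereas the dimmer one did not (r = -0.06). Within groups the dimmer Siglech probe had r = 0.37 with P2ry12 and the brighter one -0.10. With the group means left in, which adds the irradiation differences already given, these were 0.82 and -0.29 over all 16 arrays. Which parts of the transcripts these probes match was not tested, since their sequences were not used here.

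The remaining surface molecules and Sall1 had averaged differences below 0 that did not pass the test. Selplg, which encodes the ligand of P-selectin on leukocytes and microglia, gave -0.20 ± 0.09 in the averaged comparison, with an unadjusted p of 0.0441 and an adjusted p of 0.979. Fcrls, an Fc receptor-like scavenger receptor, gave -0.23 ± 0.13. Tmem119, a membrane protein widely used to tell microglia from other macrophages, gave -0.16 ± 0.14, the difference nearest to 0 of the 10. Sall1, the transcription factor that restrains other macrophage programmes in microglia, gave -0.32 ± 0.13, with an unadjusted p of 0.0257 and an adjusted p of 0.868. Sall1 levels ranged from -1.74 to -1.20 in wild type sham, -2.10 to -1.41 in wild type irradiated, -1.90 to -1.55 in labelled knockout sham and -2.34 to -1.71 in labelled knockout irradiated arrays. Sham and irradiated arrays overlapped for all 4 of these genes in both genotypes.

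**Figure D3:**
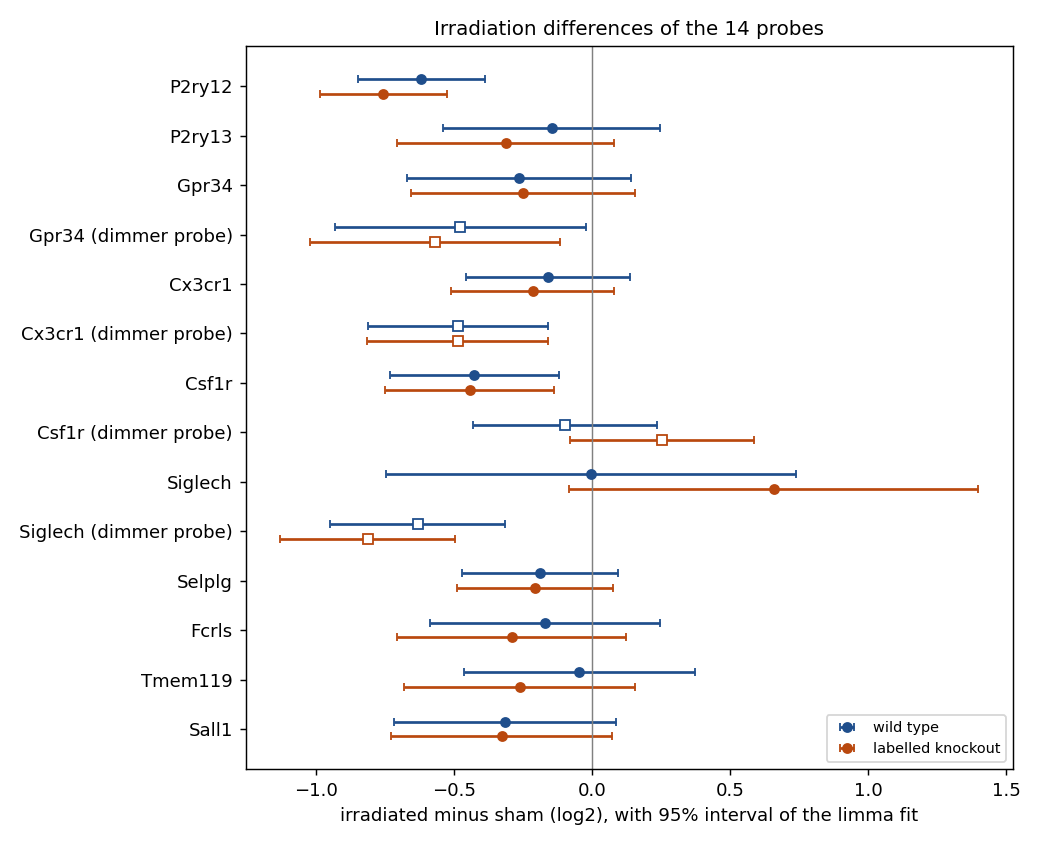
Irradiated minus sham on the log2 scale for the 14 probes, with 95% intervals of the limma fit over all 39589 probes; filled circles are the brightest probe of each gene, open squares the dimmer probe, blue wild type and red labelled knockout. P2ry12, the brighter Csf1r, the dimmer Cx3cr1 and the dimmer Siglech probe lie below 0 in both genotypes with intervals that exclude 0, as does the dimmer Gpr34 probe.

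As a group, the 10 genes were mostly lower after irradiation on their brightest probes. In wild type 10 of 10 differences were below 0, against 45.5% of all genes tested, and in labelled knockout 9 of 10 were, against 50.2%. The 10 oligodendrocyte markers were also all below 0 in wild type, with a median of -0.36, beside -0.18 for the members. In labelled knockout 1 of those 10 was below 0 (median 0.17). Lymphocyte, oligodendrocyte precursor and endothelial markers had wild-type medians of -0.27, -0.26 and -0.23, and 0.06, -0.19 and -0.04 in labelled knockout. Wild-type shifts below 0 were thus not particular to the members. With median scaling the Tmem119 and Siglech differences in wild type turned to 0.07 and 0.11, where the median of all genes moved by 0.12. 1 member was called lower in wild type, where 0.0115% of all genes were called lower and 0.0746% in either direction. 1 was called lower in labelled knockout, against 0.0459% lower and 0.120% in either direction. Both calls were P2ry12. In the averaged comparison 9 of 10 were below 0 and 1 was called lower, against 48.3% and 0.138% of all genes, of which 0.304% were called in either direction. The unadjusted p was under 0.05 and the difference negative for 4 members (P2ry12, Csf1r, Sall1 and Selplg), as for 2.53% of all genes. The median difference of the members was -0.18 in wild type, -0.28 in labelled knockout and -0.23 averaged, beside 0.01, -0.00097 and 0.0043 over all genes. P2ry12 and Csf1r were the members whose irradiated arrays all lay below the sham arrays in both genotypes, a pattern that 0.132% of all genes showed. Among the dimmer probes, those of Siglech and Cx3cr1 showed it too, as did 0.0783% of all 39589 probes, of which 0.0455% were called lower in the averaged comparison.

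The P2ry12 estimate was the lowest of the 10 on brightest probes. The upper end of its 95% interval in the averaged comparison, -0.53, lay below the estimates of all 9 other members on their brightest probes. On the dimmer Siglech probe the estimate of -0.72 was within that interval. Differences between members were not tested.

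Other microglia genes, taken from a list that shares no gene with the 10, were also below 0 more often than above it, with 1 call. Of 28 tested, 20 had a negative averaged difference, beside 48.3% of all genes, and the median was -0.15. Of them 1 gene was called lower, as were 0.138% of all genes. At an unadjusted p under 0.05, 10 were lower and 3 higher, beside 2.53% and 2.46% of all genes. The 3 higher genes, named after their values were seen, were Laptm5 (0.33 ± 0.11), Ltc4s (0.24 ± 0.08) and P2ry6 (0.24 ± 0.09). The called gene was Ctss, which encodes the lysosomal protease cathepsin S, with a difference of -0.43 ± 0.08 and a limma adjusted p of 0.0461. Its level was 3.99 to 4.40 in wild type sham, 3.60 to 4.07 in wild type irradiated, 3.83 to 4.09 in labelled knockout sham and 3.34 to 3.62 in labelled knockout irradiated arrays. The groups overlapped in wild type and not in labelled knockout, and the call was lost in 21 of 31 alternatives. Slc2a5, a fructose transporter gene, gave -0.75 ± 0.15 (adjusted p = 0.0599), with irradiated arrays below sham arrays in both genotypes. Slco2b1, an organic anion transporter gene, gave -0.29 ± 0.07, and the tetraspanin gene Cd53 gave -0.58 ± 0.13. In wild type 20 of the 28 were below 0, beside 45.5% of all genes, and in labelled knockout again 20, beside 50.2%. In both genotypes 0 were called by limma, beside 0.0746% and 0.120% of all genes. At an unadjusted p under 0.05, 6 were lower and 3 higher in wild type, beside 1.23% and 0.746% of all genes, and 7 were lower and 0 higher in labelled knockout, beside 2.14% and 2.49%. The summed linear level of the 28 genes, in units of the 75th percentile, was 72.6 to 88.2 in wild type sham, 65.4 to 76.1 in wild type irradiated, 70.6 to 76.9 in labelled knockout sham and 66.2 to 68.5 in labelled knockout irradiated arrays. The sham and irradiated sums overlapped in wild type and not in labelled knockout. The sum of the 10 members was 38.2 to 42.2, 33.0 to 36.7, 27.5 to 45.4 and 32.3 to 43.3 in the same order of groups. It showed the reverse, with overlap in labelled knockout and none in wild type. Such sums are led by the brightest probes.

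**Figure D4:**
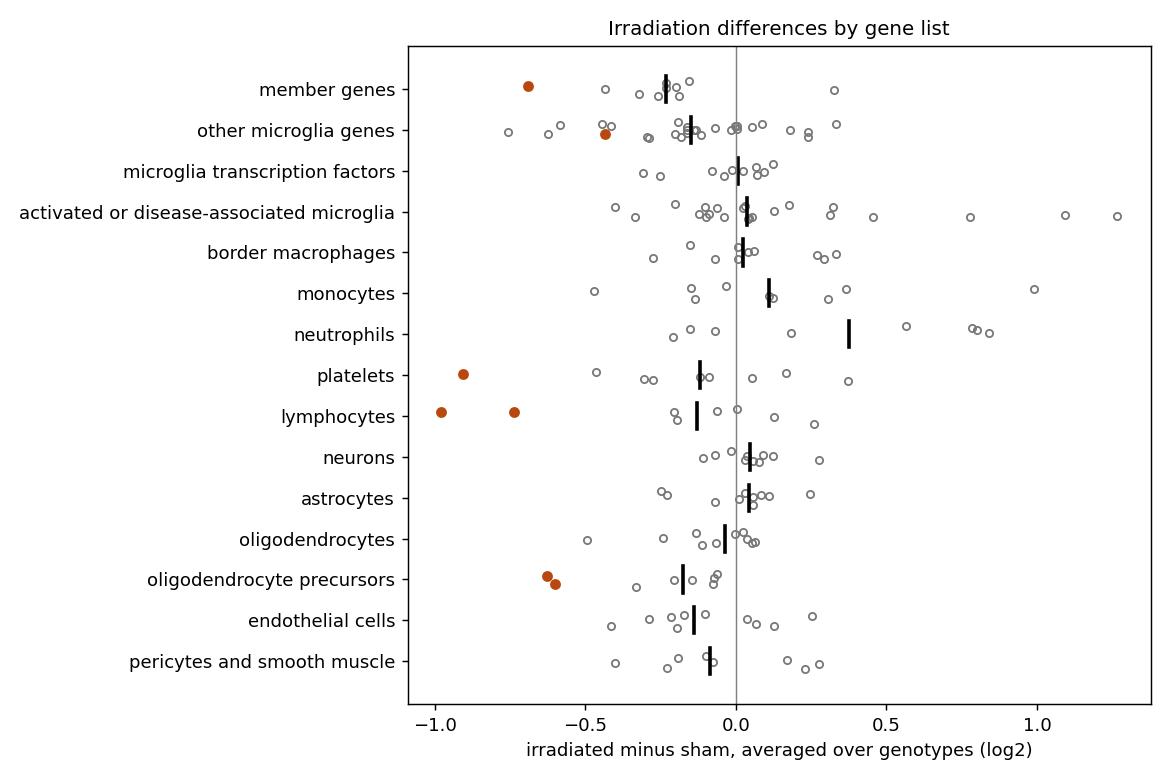
Irradiated minus sham, averaged over genotypes, on the log2 scale, for the genes of each list, 1 point per tested gene; filled red points passed the limma test and the vertical bar is the list median. The 10 members have a median of -0.23 and the other microglia genes -0.15. The list medians are -0.17 for oligodendrocyte precursors, -0.14 for endothelial cells, -0.13 for lymphocytes, -0.12 for platelets and -0.04 for oligodendrocytes. They are 0.02, 0.05 and 0.04 for border macrophages, neurons and astrocytes, and 0.11 and 0.37 for monocytes and neutrophils.

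Among ligands, adaptors and maintenance signals of the member receptors, 1 of 14 tested genes was called lower, beside 0.138% of all genes. This was Tgfbr1, the type I receptor for transforming growth factor beta, with an averaged difference of -0.43 ± 0.08 (limma adjusted p = 0.0461). Tgfbr1 read 0.01 to 0.28 in wild type sham and -0.36 to -0.05 in wild type irradiated arrays, and -0.28 to 0.18 in labelled knockout sham and -0.71 to -0.54 in labelled knockout irradiated arrays, with no overlap in either genotype. The call was lost in 25 of 31 alternatives, and the dimmest probe of the gene gave -0.06. Adora3, an adenosine receptor gene that microglia express with P2ry12, gave -0.31 ± 0.13. Tyrobp, which encodes DAP12, gave -0.13 ± 0.08. Of the ligands, Csf1 gave -0.10 ± 0.08 and Cx3cl1, which encodes fractalkine, 0.06 ± 0.05.

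The transcription factors of microglia showed no common direction. Of 10 tested, 5 were below 0, the median was 0.01 and 0 were called by limma, beside 0.304% of all genes. At an unadjusted p under 0.05, 2 were lower and 0 higher, beside 2.53% and 2.46% of all genes. Ikzf1 gave -0.31 ± 0.12 and Irf8 -0.25 ± 0.10, while Cebpa gave 0.12 ± 0.12 and Smad3 -0.08 ± 0.09. Genes of activated or disease-associated microglia had a median near 0, at 0.04, but single genes moved in both directions. Of 22 tested, 9 were below 0 and 0 were called by limma, again beside 0.304% of all genes. At an unadjusted p under 0.05, 4 were higher and 2 lower, beside 2.46% and 2.53% of all genes. The chemokine genes Ccl3 and Ccl4 gave 1.09 ± 0.24 and 1.26 ± 0.29, with adjusted p-values of 0.128 and 0.129. Lgals3, which encodes galectin-3, gave 0.78 ± 0.21, and Cd14, a coreceptor for bacterial lipopolysaccharide, gave -0.33 ± 0.09.

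Markers of other cells that express some of the 10 genes were set beside these values. None of 10 border macrophage, 9 monocyte or 8 neutrophil markers was called by limma in the averaged comparison, beside 0.304% of all genes. Of them, 0, 2 and 0 had an unadjusted p under 0.05, beside 2.53% of all genes lower and 2.46% higher. The summed linear level of the border macrophage markers was 1.60 to 2.45 in wild type sham, 1.36 to 2.34 in wild type irradiated, 1.44 to 1.85 in labelled knockout sham and 1.23 to 1.89 in labelled knockout irradiated arrays, overlapping throughout. Platelets carry P2ry12 too. Of 9 platelet markers 1 was called lower, beside 0.138% of all genes. It was Gp9, with -0.90 ± 0.13 (limma adjusted p = 0.00504). The summed platelet level was 0.982 to 1.31, 1.03 to 1.13, 1.15 to 1.45 and 0.972 to 1.32 in the same order of groups. Of 8 lymphocyte markers Il7r and Cd79b were called lower, with -0.98 ± 0.13 and -0.74 ± 0.11, against the same 0.138% of all genes. Of 8 markers of oligodendrocyte precursors Neu4 and Gpr17 were called lower, again against 0.138%, with -0.60 ± 0.08 and -0.63 ± 0.10. All 8 were below 0, beside 48.3% of all genes, with a median of -0.17. The medians of the endothelial, lymphocyte and platelet lists were -0.14, -0.13 and -0.12, with 6 of 10, 5 of 8 and 6 of 9 genes below 0. Those of the border macrophage, monocyte and neutrophil lists were 0.02, 0.11 and 0.37, with 3 of 10, 4 of 9 and 3 of 8 below 0. The part of these cells in the differences of the members was not tested.

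Between genotypes, no member passed the test over the 17436 genes on its brightest probe. Over all 39589 probes, the dimmer Csf1r probe and the P2ry12 probe passed it after irradiation. In sham arrays 0 of 10 members were called by limma on brightest probes, against 0.0516% of all genes, and 1 had an unadjusted p under 0.05, as did 7.69% of all genes. Of the 10, 6 were lower in labelled knockout than in wild type, beside 54.7% of all genes, and the median difference was -0.18, beside -0.02. P2ry12 had a genotype difference of -0.29 ± 0.10 in sham arrays (unadjusted p = 0.0140, adjusted p = 0.504), and the groups overlapped, since 1 labelled knockout sham array read 0.16.

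After irradiation 0 of 10 members were called by limma between genotypes on brightest probes and 1 had an unadjusted p under 0.05, as did 16.6% of all genes, while 1.18% of all genes were called and 0.356% were called lower. Of the members 7 were lower in labelled knockout, with a median of -0.15, beside 54.7% and a median of -0.03 over all genes. P2ry12 was lower in all 4 labelled knockout irradiated arrays than in all 4 wild type irradiated arrays, as were 4.44% of all genes. Its difference was -0.42 ± 0.10, with a limma adjusted p of 0.0603 over genes and 0.0390 over all probes. It passed the threshold in 9 of 32 alternatives. The order of the P2ry12 group means was wild type sham, labelled knockout sham, wild type irradiated and labelled knockout irradiated. Neighbouring groups in that order overlapped except for the last pair. The dimmer Csf1r probe was higher in labelled knockout after irradiation, by 0.83 ± 0.16 (limma adjusted p = 0.0128), where 4.10% of all probes were called higher and 8.83% did not overlap upwards. In sham arrays this probe differed by 0.48 ± 0.16, again without overlap (adjusted p = 0.355), as 4.25% of all probes did. With array brightness as a covariate its difference after irradiation was 0.58 (adjusted p = 0.274). The brighter Csf1r probe pointed the other way, with -0.22 ± 0.14 after irradiation. Genotype, slide and array brightness run together here and cannot be told apart.

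On brightest probes, the irradiation response was not shown to differ between genotypes for any member. The interaction of genotype and irradiation was called for 0 of 10 members and for 0% of all genes by limma, and 0 members and 1.27% of all genes had an unadjusted p under 0.05. It was negative for 8 of 10 members and for 52.6% of all genes. For P2ry12 it was -0.14 ± 0.14, with a 95% interval of -0.45 to 0.17, so that these arrays leave room for a response in labelled knockout from 0.45 stronger to 0.17 weaker on the log2 scale. For the brighter Siglech probe the interaction was 0.66 ± 0.48, with an interval of -0.37 to 1.70.

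Within groups the members did not vary as a single block. After each group's mean was subtracted, 28 of 45 pairs of brightest probes had a positive correlation over the 16 arrays, with a median r of 0.21. P2ry13, Fcrls and Tmem119 formed one cluster, with r = 0.92 for P2ry13 with Fcrls and with Tmem119 and 0.90 for Tmem119 with Fcrls. P2ry12 moved with Selplg (r = 0.80) and Csf1r (0.76). Gpr34 moved with Sall1 (0.84), and Sall1 ran against Fcrls (-0.86) and P2ry13 (-0.77). Array brightness, taken as the log2 75th percentile with group means subtracted, had r = 0.55 with P2ry13 and 0.45 with Fcrls, and -0.65 with Gpr34, -0.61 with Sall1 and -0.57 with Cx3cr1. With P2ry12 it had r = -0.02. These points share slides, labelling and brightness, and the correlations are a description of these 16 arrays.

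**Figure D5:**
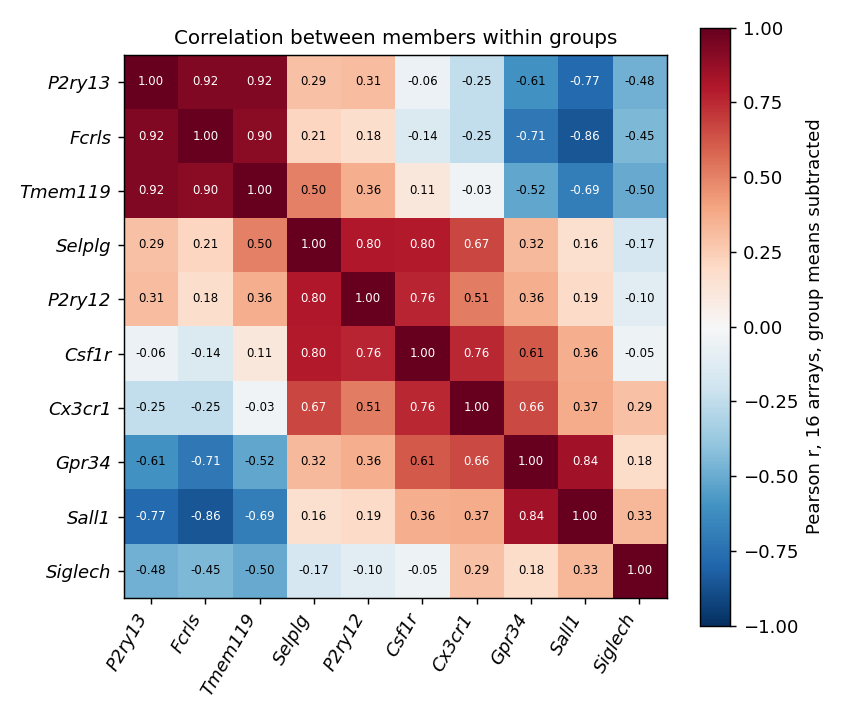
Pearson correlation between the brightest probes of the 10 genes over 16 arrays after the mean of each group was subtracted, from -1 (blue) to 1 (red). P2ry13, Fcrls and Tmem119 form a block of 0.90 to 0.92, and Sall1 with Gpr34 is at 0.84 while both are negative with that block.

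The genes outside the 10 whose levels ran most closely with P2ry12 within groups were Uchl3 (r = 0.94), Rab39 (0.93), Tfb1m (0.92), Hspd1 (0.92) and Mrrf (0.91). Their averaged irradiation differences were -0.02 to 0.03 on the log2 scale, and over all 16 arrays with group means left in their correlations with P2ry12 were 0.39 to 0.53. With the mean of the 10 members the closest genes were Nhsl1 (0.95), Ogfr, Rps4l, Kctd12 (0.94 each) and Ajap1 (0.93). None of these 10 genes was on any of the cell type lists. Those lists hold only a small part of the 17436 genes tested, so this count says little about the genes.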

How the data were processed

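RNA of 16 mouse cortices, 4 per group, was hybridised to 1-colour Agilent arrays, 1 array per mouse. The authors scanned the arrays at 3 micron, and per the file headers Feature Extraction 12.0.3.1 gave the deposited intensity of each spot, the processed signal. The authors' deposited table of 42859 features holds a score per array: its columns share the same sorted values to within 0.01, as quantile normalization gives; its processing steps are not given in the sources used here. It served as an alternative.

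Control spots and outlier-flagged spots were left out, and spots of a probe averaged. Probes were named by RefSeq accession (32994 of 35886 with such an accession matched the GRCm38.p6 gene table). Levels are log2 processed signal minus the array's 75th percentile. Probes well above background on at least 4 of 16 arrays and with at least 12 values were kept, and the brightest kept probe stood for a gene, as 6579 genes had several. A 4-group model was fitted with limma 3.58.1 in R 4.3.3 (12 residual degrees of freedom), adjusted by Benjamini-Hochberg over all 17436 genes or 39589 probes. The script was tested on simulated data. Alternatives were normexp (offset 50, on median signal and median background, since no mean signal was used here), quantile, median and z-score scaling, filters, probe choice, array weights, a block on replicate number, the deposited table, each array left out, and, chosen after seeing the data, the dimmest probe, array brightness as a covariate, and leaving out the 2 dimmest arrays.

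The 10 genes, the gene lists and the tests were chosen with earlier results of these data known. In the microglia, transcription factor, ligand and neighbour lists, named genes were the 4 with the smallest p in the averaged comparison and any that were called. Cx3cl1 was added as a ligand. Of the lists of other cells, only genes called in the averaged comparison were named. Correlated genes were the 5 closest within groups. The number of arrays limits the precision. The p-values weigh a difference against the spread between arrays of a group, in which mouse, labelling and slide position are not separated.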

Additional observations from a re-analysis of the deposited data

Results flagged for a closer look

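Of 56 groups of 4 arrays checked, 14 probes in 4 groups each, 3 held an array far from the other 3 by Dixon's test at the 95% level, where chance alone gives about 1 in 20. P2ry13 read -0.59 in wild type irradiated replicate 1, above the other 3 arrays of its group, which read -1.21 to -1.11. Fcrls and Tmem119 were highest of their group on the same array, at -0.42 and 0.62. The brighter Siglech probe read 3.93 in wild type sham replicate 3, above the others at 3.73 to 3.74. The dimmer Siglech probe read -2.40 in wild type sham replicate 2, above the others at -2.63 to -2.60. No explanation was tested.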

How the results depend on the processing

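The count of called members in wild type, 1 (P2ry12), was 0 in 25 of 32 alternatives: normexp, median and z-score scaling, no filter, every probe tested, only the 2 groups fitted, the replicate block, the deposited table, the dimmest probe, brightness as a covariate, without the 2 dimmest arrays, and 14 of 16 leave-outs (counts 0 to 1, P2ry12 at -0.65 to -0.58 in those 14). In labelled knockout it was 0 with normexp, median scaling, only the 2 groups, brightness as a covariate and without the 2 dimmest arrays, and 1 in every leave-out. Averaged, it was 2 with quantile normalization and array weights (P2ry12 and Csf1r), 2 with the dimmest probe (P2ry12 and Siglech), 1 to 2 in leave-outs (2 without labelled knockout sham replicate 4) and 0 with median scaling. Between genotypes it was 0 in all 32 alternatives in sham. After irradiation it was 1 (P2ry12) with normexp, z-score scaling, no filter, the mean of probes, every probe tested and array weights, 2 with the dimmest probe (P2ry12 and Csf1r), and 0 to 1 in leave-outs (1 without labelled knockout sham replicate 2 or 4). The interaction gave 0 in all 31.

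Some directions turned. In wild type, Tmem119 was 0.069 with median scaling and -0.16 to 0.057 over the leave-outs (above 0 in 3); Siglech was 0.027 with normexp, 0.11 with median scaling, 0.0086 with z-score scaling and -0.024 to 0.043 over the leave-outs (above 0 in 2). With the mean of both probes Siglech was -0.078 in labelled knockout and -0.20 averaged, and Csf1r between genotypes was 0.14 in sham and 0.30 after irradiation. With the dimmest probe Siglech was -0.81 in labelled knockout, -0.72 averaged and -0.18 in the interaction, and Csf1r was 0.25 in labelled knockout, 0.076 averaged, and 0.48 and 0.83 between genotypes. The cause was not tested. The dimmer Siglech call held in 23 of 26 alternatives and the dimmer Csf1r genotype call in 22 of 26, the losses including 0.80 without wild type irradiated replicate 3 (adjusted p = 0.0527).

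Over all genes the calls ranged from 9 to 24 in wild type, 6 to 25 in labelled knockout, 26 to 87 averaged, 2 to 192 between genotypes in sham and 0 to 3204 after irradiation, the 0 with brightness as a covariate and the 3204 with normexp; the main counts were 13, 21, 53, 9 and 205. Median scaling moved the median of all genes by 0.12 in wild type, -0.22 between genotypes after irradiation and -0.18 in the interaction. Its calls averaged over genotypes were 7 lower and 19 higher, beside 24 and 29, and between genotypes after irradiation 9 lower and 4 higher, beside 62 and 143. Replicate numbers were not taken as pairing the arrays, since 11 of 24 same-number correlations were over 0.1 (range -0.60 to 0.52), and in 7 of 24 comparisons an array correlated best with its own number in the other group. Between sham and irradiated labelled knockout arrays, 3 of 4 correlations were over 0.1 and 3 of 4 arrays matched best with their own number; between sham and irradiated wild-type arrays, 1 of 4 and 0 of 4. The number equals the slide column, and replicate 1 was the brightest array in 4 of 4 groups and replicate 4 the dimmest in 3 of 4. The replicate block lowered the wild-type count of members to 0 (P2ry12 -0.62, adjusted p = 0.0730) and changed no other count of members. With 4 arrays per group and signal that differs between groups, small differences of single members are beyond the precision of these arrays.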
